A study of Mus musculus with 8 samples.

Results

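The nuclear lamina and inner nuclear envelope genes described here are 10 mouse genes: the lamins Lmna, Lmnb1 and Lmnb2, the lamin B receptor Lbr, the chromatin bridge Banf1, the LEM-domain genes Tmpo, Emd, Lemd2 and Lemd3, and the SUN-domain gene Sun1. They were taken by matching gene identifiers of the count table to these symbols, and all 10 were found among its 55385 genes and all 10 passed the filter that left 14929 genes for testing. The study measured polyadenylated RNA by single-read sequencing in 8 libraries of mouse oocytes grown in culture from embryonic stem cells, with 2 libraries in each of 4 groups. The groups were MII and GV oocytes of the sex-converted XX line N2DsRed4XO63R2, and MII and GV oocytes of the native XX line H18. The sex-converted line stands for XX cells obtained from male cells, and each line is represented by 1 stem cell line. All groups shared the strain C57BL/6 x 129/SvJ, the Blimp1-mVenus and Stella-ECFP reporter transgenes, aggregation of the germ cells with female gonadal somatic cells of embryonic day 12.5, 21 days of differentiation culture and 11 days of growth culture. MII oocytes then had 16 hours of maturation with FSH, EGF and hCG, were freed of cumulus cells with hyaluronidase and were recognised by the first polar body. GV oocytes were taken at growth day 11, in collagenase, trypsin and Accutase with dibutyryl-cAMP and IBMX, which hold meiosis, and their cumulus cells were removed with a capillary. Pools held 35 to 58 oocytes at MII and 31 to 158 at GV, and the stage of the oocytes and the way they were isolated cannot be told apart. The labels call the libraries of a group biological duplicates.

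The lamina is a meshwork of intermediate filament proteins under the inner nuclear membrane. Lmna encodes lamins A and C, while Lmnb1 and Lmnb2 encode B-type lamins, which stay attached to the membrane by a farnesyl lipid. Membrane proteins such as Lbr, emerin and the Tmpo products (LAP2 proteins) tie the lamina to chromatin, in part through Banf1, a small DNA-binding protein that also binds LEM domains. A GV oocyte has a large nucleus with an intact envelope. In maturation the envelope breaks down, an MII egg holds condensed chromosomes on a spindle with no envelope around them, and after fertilisation new envelopes form around the pronuclei from maternal stores.

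Libraries held 10306471 to 14999003 counted reads. The 12 oocyte markers, among them Gdf9, Bmp15 and Zp3, were all detected in each library. Their summed level was 17810 to 21290 CPM in MII libraries and 13980 to 17140 CPM in GV libraries. CPM, the usual depth-scaled read count, is relative to the library total corrected by its TMM factor (trimmed mean of M-values). In the sex-converted line edgeR called 4 of the 12 higher at MII and 8 lower, against 29.3% and 36.2% of all tested genes. In the native line it called 4 higher and 7 lower, against 29.6% and 35.7%. In the sex-converted line Gdf9 was among those higher, and Bmp15 and Zp3 were among those lower. The summed level of 14 granulosa and cumulus markers was 114.6 to 133.2 CPM at MII and 56.43 to 77.19 CPM at GV, with Fshr at 0 reads in all 4 MII libraries and Foxl2 at 0 in 3 MII and 3 GV libraries. Of the 7 that were tested, Cyp19a1, Has2 and Kitl were called higher at MII in both lines by edgeR (3.817-, 4.072- and 5.617-fold in the sex-converted and 3.244-, 9.113- and 5.412-fold in the native line) and Fshr lower. Between 4 and 6 of the 10 stromal markers were detected in MII libraries and 3 or 4 in GV libraries, with Col1a2, Lum and Thy1 at 0 in all 8. Stromal markers summed to 3.234 to 19.48 CPM at MII, highest in native MII replicate 1, and to 0.877 to 1.477 CPM at GV. Both Vim, at 15 to 175 reads at MII and 1 to 4 reads at GV, and Acta2, at 5 to 35 reads at MII and 0 reads in all 4 GV libraries, were called higher at MII in both lines. Of the 8 endothelial and blood markers 4 to 6 were detected per library, with Hba-a1 at 0 in all 8, and they summed to 206.8 to 291.9 CPM at MII and 77.61 to 114.8 CPM at GV. Most of that sum was Pecam1, at 189.7 to 275.4 CPM at MII and 58.89 to 88.44 CPM at GV and called higher in both lines, while Tek, at 5.207 to 10.18 CPM at MII and 16.39 to 22.05 CPM at GV, was called lower in both. The median level over 13 mitochondrially encoded genes was 118.8 to 143.9 CPM in MII libraries and 16.99 to 71.28 CPM in GV libraries. The part of these somatic and mitochondrial transcripts in the values below was not tested. In such pools, fewer cells of a type and less RNA per cell cannot be told apart, and since polyadenylated RNA was captured, a change of a poly(A) tail and a change in the amount of an mRNA cannot be told apart either.

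In both lines, MII oocytes had far more Lbr mRNA and far less Lmna mRNA than GV oocytes, relative to the other mRNAs of the libraries. Lmnb1, Sun1, Tmpo and Emd rose as well, while Lmnb2, Banf1 and Lemd3 passed the test in neither line and Lemd2 passed it in the sex-converted line. Thus 5 members were higher and 2 were lower in MII oocytes of the sex-converted line, where 29.3% of all tested genes were called higher and 36.2% lower. In the native line 5 were higher and 1 was lower, against 29.6% and 35.7% of all tested genes. Calls are at a Benjamini-Hochberg adjusted p under 0.05 in edgeR's quasi-likelihood test over all 14929 genes. The median log2 fold change of MII over GV over the 10 members was 0.44 in the sex-converted and 1.22 in the native line, beside -0.345 and -0.307 over all tested genes. When library totals were the only scaling, these all-gene medians were -1.28 and -1.22. The share of all calls that were higher was then 23.4% and 24.6% instead of 44.7% and 45.3%. With that scaling 4 members were higher and 3 lower in the sex-converted line, against 15.9% and 52.1% of all tested genes. In the native line 4 members were higher and 2 lower, against 16.7% and 51% of all tested genes.

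**Figure D1:**
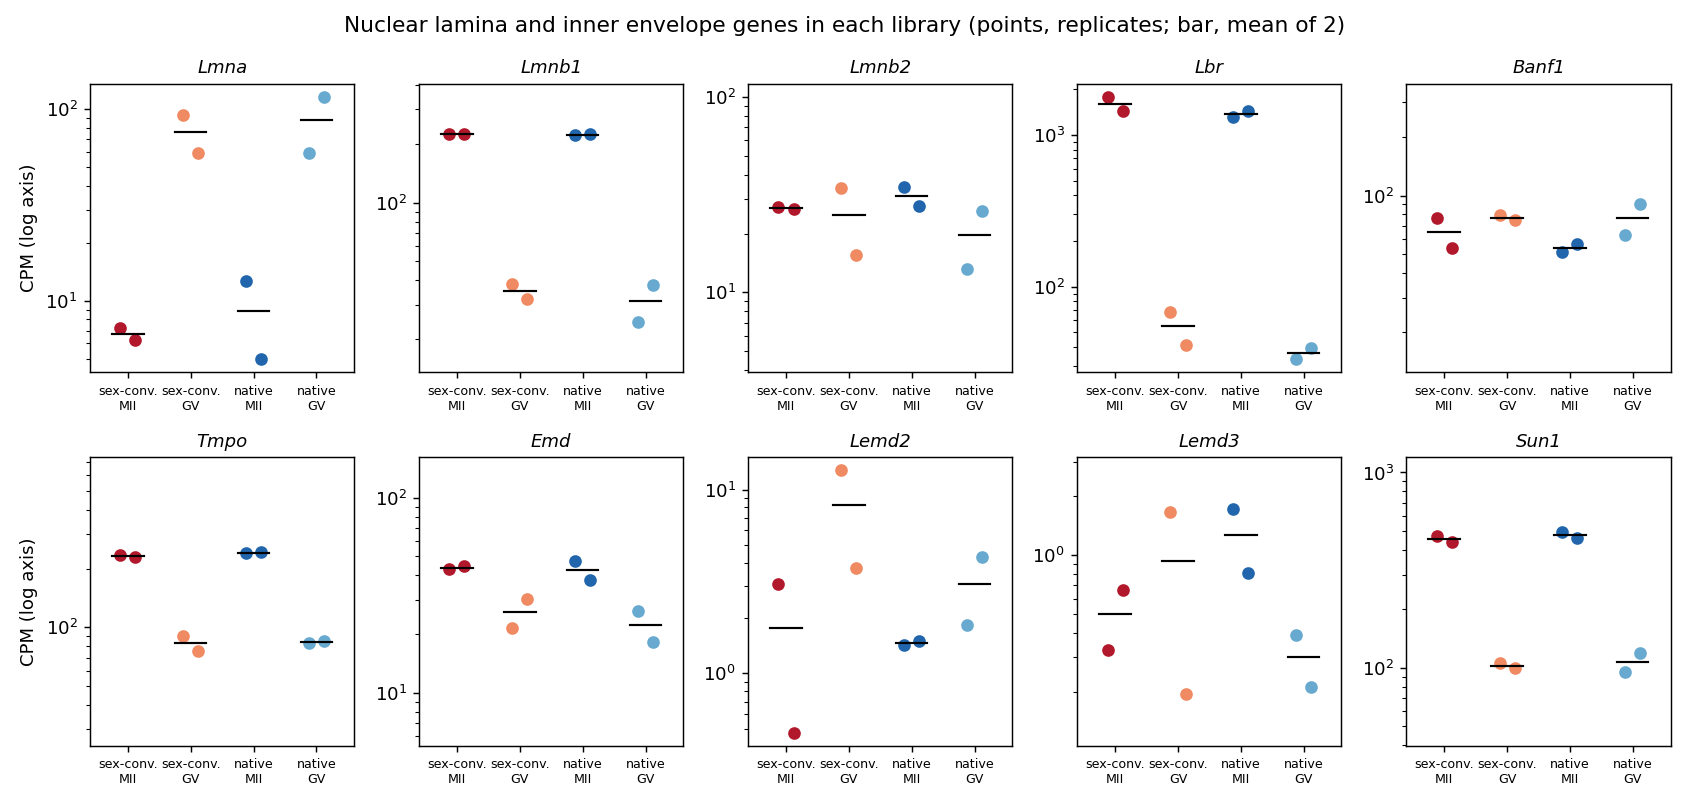
CPM on a log axis for each of the 10 genes in the 8 libraries, grouped by line and stage, with points for replicates and a bar for the mean of 2; the axes of all panels differ. Lbr lies between 1316 and 1782 CPM in MII libraries and between 33.41 and 68.43 CPM in GV libraries, Lmna lies between 4.976 and 12.7 CPM at MII and between 59.1 and 116.4 CPM at GV, and Banf1 overlaps between the stages.

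Among the lamins the 3 genes took 3 different courses. Lmna (ENSMUSG00000028063.15, chr3:88480147-88509956, minus strand) stood at 7.226 and 6.277 CPM in sex-converted MII libraries, against 93.23 and 59.1 CPM in sex-converted GV libraries. In the native line it was at 12.7 and 4.976 CPM at MII, against 59.53 and 116.4 CPM at GV. Every MII library was below every GV library, with 43 to 133 reads at MII and 1069 to 1655 reads at GV. The log2 fold change was -3.50 in the sex-converted line (SE 0.465, adjusted p = 5.96e-05) and -3.30 in the native line (SE 0.457, adjusted p = 7.99e-05), or 11.28-fold and 9.844-fold lower at MII. Both sex-converted MII libraries had 66 Lmna reads, while their stromal marker sums were 12.48 CPM in replicate 1 and 3.234 CPM in replicate 2. The highest MII value, 133 reads, came from native MII replicate 1, which also had the highest stromal marker sum, 19.48 CPM against 3.234 to 12.48 CPM in the other MII libraries. The part of those transcripts was not tested, and without that library the native fall was -4.15 (adjusted p = 8.73e-05).

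Lmnb1 (ENSMUSG00000024590.8, chr18:56707813-56753424, plus strand) moved the other way. It had 225 and 224 CPM in sex-converted MII libraries, against 38.27 and 31.91 CPM in sex-converted GV libraries. Native oocytes had 221.2 and 225.1 CPM at MII, against 24.5 and 37.92 CPM at GV. The 4 MII libraries lay within 221.2 to 225.1 CPM and above all GV libraries, whose values spread more widely. The rise was 6.398-fold in the sex-converted line (log2 2.68, SE 0.236, adjusted p = 3.42e-06) and 7.157-fold in the native line (log2 2.84, SE 0.238, adjusted p = 2.42e-06).

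Lmnb2 (ENSMUSG00000062075.13, chr10:80901203-80918245, minus strand), the other B-type lamin gene, was at 27.37 and 26.73 CPM in sex-converted MII libraries and at 34.22 and 15.49 CPM in sex-converted GV libraries. In native oocytes it was at 34.66 and 27.54 CPM at MII and at 13.2 and 26.1 CPM at GV. The stages overlapped in the sex-converted line, and in the native line the lower MII library was close to the higher GV library. Neither log2 fold change passed the test, with 0.12 in the sex-converted line (95% interval -0.747 to 0.996, adjusted p = 0.795) and 0.67 in the native line (95% interval -0.21 to 1.54, adjusted p = 0.162). These values depended on single GV libraries, since the sex-converted value was 0.81 without sex-converted GV replicate 1 (adjusted p = 0.111) and -0.31 without replicate 2 (adjusted p = 0.512), and the native value was 1.23 and passed the test without native GV replicate 2 (adjusted p = 0.0247). With library totals alone the sign turned in both lines, to -0.82 and -0.25.

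The GV libraries with the higher Lmna and Lmnb2 values of each line were sex-converted replicate 1 and native replicate 2. They also had the higher Lmnb1, Lbr, Sun1, Tmpo, Banf1 and Lemd2 values of their group and the lower Emd value. The higher Lemd3 value was in sex-converted replicate 1 but in native replicate 1. The same libraries had the lower median level over 13 mitochondrially encoded genes, 16.99 and 19.63 CPM, against 71.28 CPM in sex-converted GV replicate 2 and 63.99 CPM in native GV replicate 1. Its part in the values of these genes was not tested.

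The lamin mRNA pool had a different make-up at the 2 stages. Expressed as a share of the summed level of the 3 lamin genes per kb of annotated exon, Lmna made up 1.48% and 1.3% in sex-converted MII libraries and 43.3% and 41.3% in sex-converted GV libraries. In native oocytes the share of Lmna was 2.56% and 1.02% at MII and 47.3% and 51.4% at GV. Lmnb1 made up 87.9% to 91.3% of the pool in the 4 MII libraries and 33% to 44% in the 4 GV libraries. At GV the level of Lmna per kb was 0.94 to 1.56 times that of Lmnb1, and at MII it was 0.0112 to 0.0291 times that of Lmnb1. The share is a ratio within a library and shows unequal change of the lamins, whatever the scaling between libraries. With the length of the main transcript in place of all annotated exons, the mean share of Lmna was 2.4% and 3.07% in sex-converted and native MII libraries and 54.9% and 61.9% in sex-converted and native GV libraries.

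**Figure D2:**
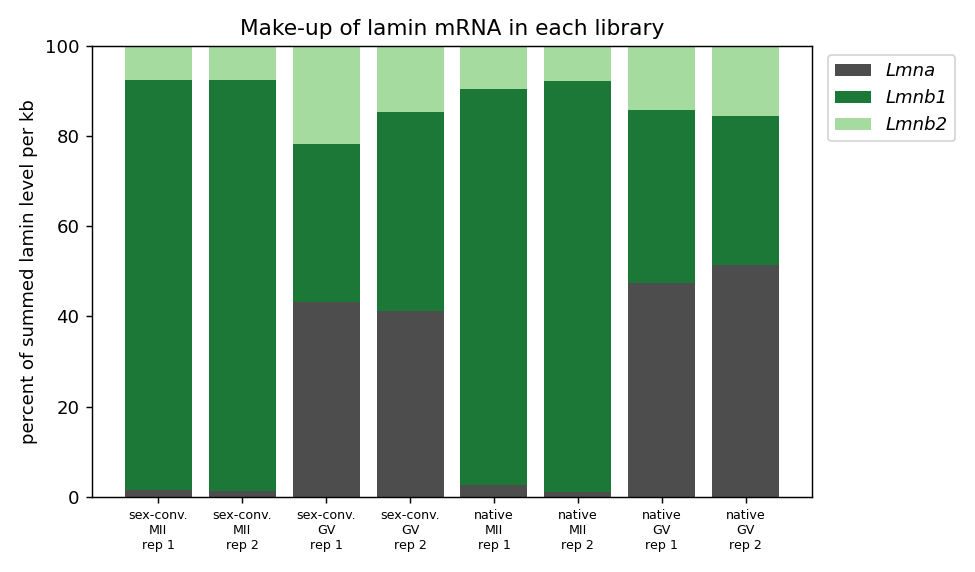
Stacked bars of the percent of the summed lamin level per kb that Lmna, Lmnb1 and Lmnb2 make up in each of the 8 libraries. Lmna fills 41.3% to 51.4% of the GV bars and 1.02% to 2.56% of the MII bars, where Lmnb1 fills 87.9% to 91.3%.

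Lbr (ENSMUSG00000004880.11, chr1:181815335-181843046, minus strand) encodes a protein that crosses the inner nuclear membrane many times, binds B-type lamins and heterochromatin and also carries sterol reductase activity. It had 1782 and 1427 CPM in sex-converted MII libraries, against 68.43 and 41.37 CPM in sex-converted GV libraries. Native oocytes had 1316 and 1433 CPM at MII, against 33.41 and 39.61 CPM at GV. The lowest MII library was far above the highest GV library, with 12382 to 16274 reads at MII and 563 to 1148 reads at GV. The rise was 29.24-fold in the sex-converted line (log2 4.87, SE 0.266, adjusted p = 4.06e-07) and 37.65-fold in the native line (log2 5.24, SE 0.271, adjusted p = 2.66e-07). By log2 fold change Lbr ranked 39 in the sex-converted line and 44 in the native line of 14929 tested genes, counting from the highest. Dnah14, on the other strand, overlaps 9.24% of the annotated exon length of Lbr, and its reads cannot be told from those of Lbr there, since no source used here gives the counting strand.

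Against Lmnb1 and Lmna, the level of Lbr also shifted within each library. Per kb, Lbr was at 4.93 and 3.96 times Lmnb1 in sex-converted MII libraries and at 1.11 and 0.806 times Lmnb1 in sex-converted GV libraries. In native oocytes it was at 3.7 and 3.96 times Lmnb1 at MII and at 0.848 and 0.65 times Lmnb1 at GV. The ratio of Lbr to Lmna was 302 and 279 in sex-converted MII libraries, against 0.9 and 0.858 in sex-converted GV libraries. In native oocytes that ratio was 127 and 353 at MII, against 0.688 and 0.417 at GV, so that the levels per kb were of like size at GV and differed at least 127-fold at MII.

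The 3′ end of Lbr is shown because this member rose most, and because mRNAs stored in oocytes are known to gain or lose poly(A) tails through short elements near the polyadenylation signal. TTTTAT and TTTTAAT (forms of the cytoplasmic polyadenylation element) and AATAAA and ATTAAA (polyadenylation signals) were searched on the transcript strand in the last 100 bases of the main transcript of 21781 genes in GENCODE M21, a choice made after the values were seen; no match of one of these words contains another. The sites below are given in GRCm38, 5′ to 3′ on the minus strand, with the searched word in capitals.
Lbr TTTTAAT, chr1:181815382-181815411: gtgcaagttgtTTTTAATttgatgtttggc
Lbr AATAAA, chr1:181815355-181815384: ggcaagctttgtAATAAAattttggttgga
In Lbr-201 the TTTTAAT ended 21 bases before the first of its AATAAA words. Of the 10 members only Lbr held a TTTTAAT and none held a TTTTAT in this window, while 4.63% and 12.8% of all 21781 genes held them. An AATAAA was present in 7 of the 10 members and in 61% of all genes, and an ATTAAA in 1 of 10 and in 18.9% of all genes. A match or its absence describes these letters in this window and nothing more.

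Sun1 (ENSMUSG00000036817.14, chr5:139200637-139249840, plus strand) encodes an inner membrane protein whose SUN domain binds KASH proteins of the outer membrane across the envelope lumen, forming the LINC bridge to the cytoskeleton; in meiotic prophase it holds telomeres at the envelope. It was at 472.2 and 440.4 CPM in sex-converted MII libraries, against 105.2 and 99.59 CPM in sex-converted GV libraries. In native oocytes it was at 497.6 and 460.2 CPM at MII, against 95.62 and 118.3 CPM at GV. The groups were apart in both lines, and the rise was of like size in both. It was 4.457-fold in the sex-converted line (log2 2.16, SE 0.179, adjusted p = 2.31e-06) and 4.478-fold in the native line (log2 2.16, SE 0.179, adjusted p = 2.22e-06).

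Of the LEM-domain genes, Tmpo rose most clearly. Tmpo (ENSMUSG00000019961.17, chr10:91147571-91181315, minus strand), which encodes membrane-bound and soluble LAP2 proteins, had 235.8 and 229 CPM in sex-converted MII libraries, against 90.07 and 75.57 CPM in sex-converted GV libraries. Native oocytes had 239.9 and 243 CPM at MII, against 83.59 and 85.34 CPM at GV. Values within a stage were close and the stages did not overlap. The log2 fold change was 1.49 in the sex-converted line (SE 0.177, adjusted p = 2.66e-05) and 1.51 in the native line (SE 0.177, adjusted p = 2.36e-05). It remained positive at 0.55 and 0.60 with library totals alone (adjusted p = 0.019 and 0.0122).

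Emd (ENSMUSG00000001964.14, chrX:74254687-74261548, plus strand) encodes emerin, an inner membrane protein that binds Banf1 and A-type lamins. It had 42.92 and 44.8 CPM in sex-converted MII libraries, against 21.52 and 30.31 CPM in sex-converted GV libraries. Native oocytes had 47.27 and 37.72 CPM at MII, against 26.23 and 18.22 CPM at GV. All MII libraries were above all GV libraries, and the rise was the smallest of those called among the members, with a log2 fold change of 0.76 in the sex-converted line (SE 0.27, adjusted p = 0.0282) and 0.93 in the native line (SE 0.272, adjusted p = 0.0106), and with library totals alone it was -0.17 in the sex-converted line and 0.026 in the native line. In the sex-converted line the call depended on MII replicate 1 (without it adjusted p = 0.0769), MII replicate 2 (adjusted p = 0.104) and GV replicate 1 (adjusted p = 0.18), and in the native line on MII replicate 1 (adjusted p = 0.0772) and GV replicate 2 (adjusted p = 0.0759). The pseudogene Gm14686 shares 13.6% of the exon length of Emd on the same strand, so that reads there are uncertain.

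Lemd2 (ENSMUSG00000044857.8, chr17:27189600-27204469, minus strand), whose product recruits membrane-sealing factors to the re-forming envelope, was low in all libraries. It had 28 and 5 reads in sex-converted MII libraries, against 213 and 77 reads in sex-converted GV libraries. In native oocytes there were 15 and 13 reads at MII, against 33 and 61 reads at GV. On the CPM scale the MII libraries had 0.4755 to 3.065 and the GV libraries 1.838 to 12.7, and the stages were apart within each line but overlapped across lines. The log2 fold change was -2.23 in the sex-converted line (SE 0.786, adjusted p = 0.0269) and -1.05 in the native line (SE 0.811, adjusted p = 0.274; -0.33 without native GV replicate 2). The sex-converted call rested on single libraries: the value was -1.42 without MII replicate 2 (adjusted p = 0.157) and -1.11 without GV replicate 1 (adjusted p = 0.267), but -4.08 without MII replicate 1 (adjusted p = 0.00536) and -2.84 without GV replicate 2 (adjusted p = 0.00584).

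Lemd3 (ENSMUSG00000048661.14, chr10:120923413-120979332, minus strand), also called MAN1, binds receptor-regulated SMAD proteins at the inner membrane. It was close to the limit of detection, with 3 and 7 reads in sex-converted MII libraries and 28 and 4 reads in sex-converted GV libraries. Native oocytes had 18 and 7 reads at MII and 7 and 3 reads at GV. No change was detectable at this depth. The log2 fold change was -0.85 in the sex-converted line (95% interval -3.09 to 1.39, adjusted p = 0.475) and 2.03 in the native line (95% interval -0.237 to 4.3, adjusted p = 0.104), and the first turned to 1.33 without sex-converted GV replicate 1, which held the 28 reads.

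Banf1 (ENSMUSG00000024844.15, chr19:5364638-5367168, minus strand), the small protein that cross-links DNA and binds LEM domains when envelopes re-form, was not called between the stages in either line. It had 76.42 and 53.93 CPM in sex-converted MII libraries and 79.16 and 74.64 CPM in sex-converted GV libraries. Native oocytes had 51.66 and 56.24 CPM at MII and 62.82 and 90.4 CPM at GV. The stages overlapped in the sex-converted line and were apart in the native line. The log2 fold change was -0.24 in the sex-converted line (95% interval -0.78 to 0.301, adjusted p = 0.405) and -0.51 in the native line (95% interval -1.05 to 0.0375, adjusted p = 0.0921), and it passed the test without native GV replicate 1 (-0.72, adjusted p = 0.0332) and with library totals alone in both lines (-1.18 and -1.42). Eif1ad, on the other strand, overlaps 28.6% of the annotated exon length of Banf1.

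**Figure D3:**
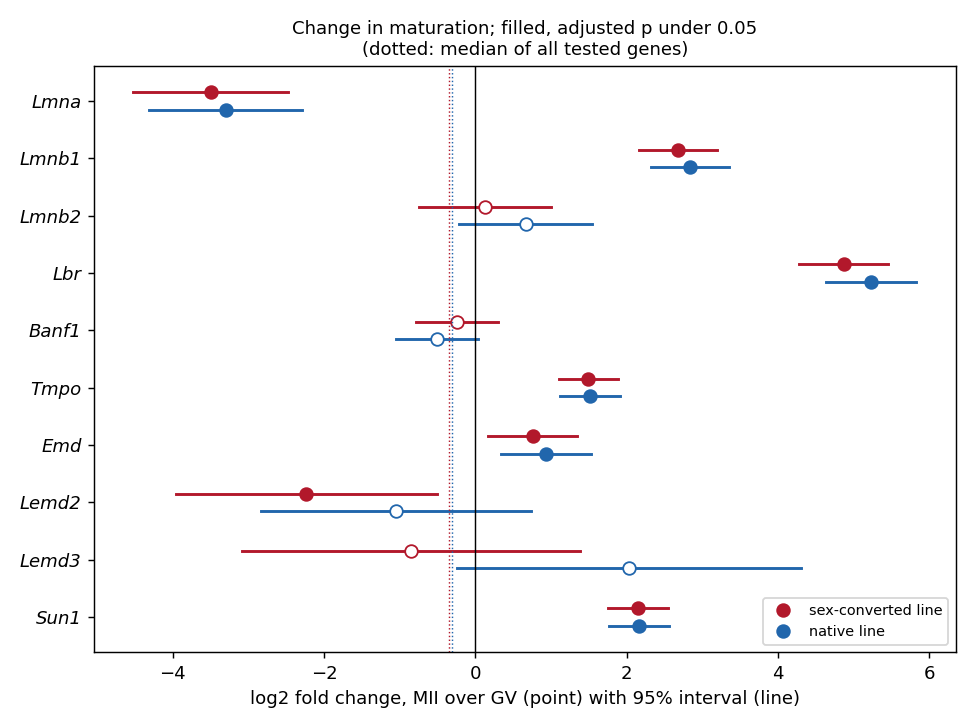
Log2 fold change of MII over GV with its 95% interval for the 10 genes, sex-converted line above native line, filled where the adjusted p is under 0.05; dotted lines mark the all-gene medians of -0.345 and -0.307. Lbr is at 4.87 and 5.24, Lmna at -3.50 and -3.30, and the intervals of Lemd2 and Lemd3 are the widest.

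Set in order by level per kb of annotated exon, the members had another order at each stage. In sex-converted MII libraries Lbr came first at 337 ± 52.6 CPM per kb, followed by Lmnb1 at 75.8 ± 0.24, Sun1 at 60.1 ± 2.96, Banf1 at 43.6 ± 10.6, Tmpo at 21.1 ± 0.438, Emd at 17.4 ± 0.53, Lmnb2 at 6.31 ± 0.106 and Lmna at 1.16 ± 0.115 CPM per kb (SD, n = 2). The native MII libraries had the same order, from Lbr at 289 ± 17.4 to Lmna at 1.51 ± 0.935 CPM per kb (SD, n = 2). No neighbours among these 8 overlapped in their 2 libraries, while Lemd2 and Lemd3, the last of the order in both groups, overlapped. At GV Banf1 came first, at 51.4 ± 2.13 CPM per kb in sex-converted and 51.2 ± 13.0 CPM per kb in native oocytes (SD, n = 2). Behind it, Sun1, Lmna, Lmnb1, Lbr and Emd overlapped from neighbour to neighbour between 8.55 and 15.97 CPM per kb in sex-converted oocytes, and Lmna, Sun1, Lmnb1, Emd, Tmpo and Lbr did so between 7.018 and 19.94 CPM per kb in native oocytes. Lmnb2, Lemd2 and Lemd3 took the last 3 places at GV in both lines. Lbr exceeded 99.1% of 14921 tested genes of known length at MII and 75.9% at GV in the sex-converted line, and Lmna exceeded 42.6% at MII and 78.1% at GV. The annotated exons of Tmpo add up to 10998 bases while its main transcript has 3772, and by transcript length Tmpo moved to place 4 in each group, with Lbr still first at MII and Banf1 first at GV. With that length Sun1 stood ahead of Lmnb1 at MII, at 110 against 79 CPM per kb in sex-converted and 116 against 78.5 CPM per kb in native oocytes. Banf1 then moved to place 5 at MII, and Lmnb1 moved at GV to place 7 in the sex-converted and place 6 in the native line, so that these places depended on the length used.

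The lines were compared at each stage and in their response to maturation. None of the 10 members was called in the sex-converted line against the native line, neither at MII nor at GV, in edgeR's test, against 0.0067% of all tested genes in each direction at each stage. DESeq2 called 0 members at both stages too. Over all tested genes it called 0.0268% higher and 0.0067% lower at GV, and 0.0134% in each direction at MII. In edgeR's test 549 of all 14929 genes had an unadjusted p under 0.05 at MII and 319 at GV. At MII 0 members had an unadjusted p under 0.05. Of the members Lmnb1 was the closest between the lines at MII, at 0.0088 on the log2 scale (95% interval -0.477 to 0.495), and Sun1 had -0.070 (95% interval -0.447 to 0.307). For Lbr it was 0.22 (95% interval -0.273 to 0.72), for Lmna -0.40 (95% interval -1.42 to 0.614) and for X-linked Emd 0.045 (95% interval -0.548 to 0.637). At GV 1 member had an unadjusted p under 0.05, and this was Lbr, at 0.59 on the log2 scale for sex-converted over native (95% interval 0.0792 to 1.1, unadjusted p = 0.0273, adjusted p = 1). Both sex-converted GV libraries, at 68.43 and 41.37 CPM, were above both native GV libraries, at 33.41 and 39.61 CPM, by a gap smaller than the spread within the sex-converted pair. The widest intervals were those of the rarely read genes, with 1.56 for Lemd3 (95% interval -0.673 to 3.78) and 1.43 for Lemd2 (95% interval -0.172 to 3.03) at GV. Leaving out sex-converted GV replicate 1 brought them to -0.61 for Lemd3 and 0.31 for Lemd2. Without sex-converted GV replicate 2 they were 2.40 for Lemd3 and 2.05 for Lemd2, and without native GV replicate 2 the value for Lemd2 was 2.14.

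The difference of the maturation changes, sex-converted minus native, was called for 0 of the 10 members, and 0 had an unadjusted p under 0.05, beside 0% of all tested genes called in either direction by edgeR and 329 of 14929 at an unadjusted p under 0.05. DESeq2 called 0 members and 0 genes in all. The difference was -0.0066 for Sun1 (95% interval -0.541 to 0.528), -0.026 for Tmpo (95% interval -0.567 to 0.515), -0.16 for Lmnb1 (95% interval -0.856 to 0.532), -0.36 for Lbr (95% interval -1.07 to 0.345) and -0.20 for Lmna (95% interval -1.55 to 1.15). Differences of more than 1.07 log2 units in Lbr, Lmnb1, Sun1 and Tmpo thus lie outside these intervals, whereas for Lemd2 and Lemd3, at -1.19 (95% interval -3.67 to 1.3) and -2.88 (95% interval -6.06 to 0.297), the intervals leave room for large differences. Single libraries set these values, which went from -3.01 without sex-converted MII replicate 1 to -0.065 without sex-converted GV replicate 1 for Lemd2, and from -3.70 without sex-converted GV replicate 2 to -0.69 without replicate 1 for Lemd3.

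Genes that work with the members were described from 5 lists chosen with earlier results of these data known. The list of other LINC complex genes had 9 members, of which 5 were tested, and Sun3, Sun5, Spag4 and Syne4 had too few reads. In each line 1 rose and 2 fell, against 29.3% and 29.6% of all tested genes called higher and 36.2% and 35.7% called lower in the sex-converted and native lines. The median log2 fold change over the 5 was -0.56 in the sex-converted and -0.11 in the native line, beside -0.345 and -0.307 over all tested genes. Kash5, the KASH protein that joins Sun1 to dynein in meiotic prophase (listed in GENCODE M21 as Ccdc155), fell to 16 and 7 reads in sex-converted MII libraries, against 586 and 889 reads in sex-converted GV libraries. In native oocytes it had 24 and 7 reads at MII, against 758 and 587 reads at GV. Its log2 fold change was -5.04 in the sex-converted line (SE 0.474, adjusted p = 5.3e-06; -5.86 without sex-converted MII replicate 1) and -4.71 in the native line (SE 0.458, adjusted p = 6.56e-06; -5.68 without native MII replicate 1). Syne2, a giant outer membrane partner of SUN proteins, had 19.49 and 14.27 CPM in sex-converted MII libraries, against 216.3 and 181.3 CPM in sex-converted GV libraries, and fell by 3.56 on the log2 scale (SE 0.346, adjusted p = 6.62e-06). In the native line Syne2 had 36.76 and 16.55 CPM at MII, against 181.9 and 173.1 CPM at GV, a fall of -2.73 (SE 0.332, adjusted p = 3.08e-05; -3.43 without native MII replicate 1). Sun2, another SUN protein of the inner membrane, rose by 1.84 in the sex-converted and 1.71 in the native line (adjusted p = 0.00109 and 0.00182), though these calls were lost with library totals alone (0.89 and 0.79, adjusted p = 0.0573 and 0.0885).

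Within a library, Sun1 and Syne2 thus changed unequally. The 2 tested genes of that list that are not named here were called in neither line. Per kb, Sun1 was at 85.3 and 109 times Syne2 in sex-converted MII libraries, against 1.71 and 1.93 times in sex-converted GV libraries. In native oocytes it was at 47.6 and 97.9 times Syne2 at MII, against 1.85 and 2.41 times at GV. The ratio of Sun1 to Sun2 was 13.4 to 17.9 in the 4 MII libraries and 8.93 to 15.3 in the 4 GV libraries, and these ranges overlapped.

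**Figure D4:**
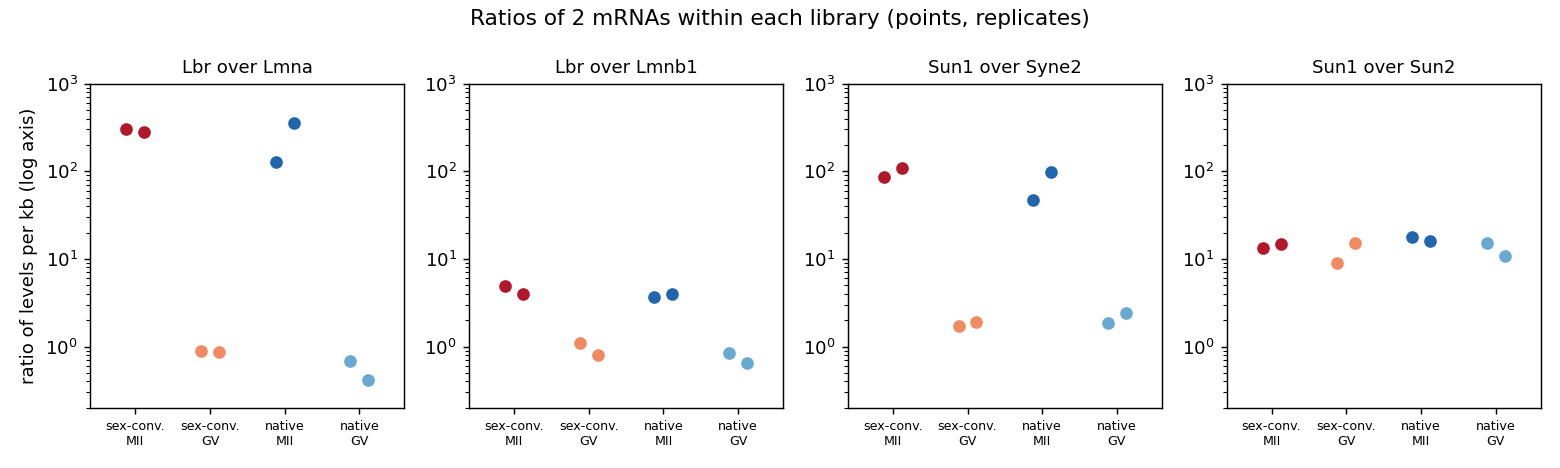
Ratios of the levels per kb of pairs of genes within each library on a log axis, by line and stage. Lbr over Lmna is 127 to 353 at MII and 0.417 to 0.9 at GV, Sun1 over Syne2 is 47.6 to 109 at MII and 1.71 to 2.41 at GV, and Sun1 over Sun2 overlaps between the stages.

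Of 14 other inner envelope and torsin genes 13 were tested, all but Ankle1. In the sex-converted line 6 rose and 4 fell (median change 0.42), and in the native line 7 rose and 4 fell (median 0.716), beside all-gene medians of -0.345 and -0.307 and 29.3% higher and 36.2% lower calls in the sex-converted and 29.6% and 35.7% in the native line. Tmem201, which encodes the membrane protein SAMP1, was the most abundant of those named, with 1005 and 843.9 CPM in sex-converted MII libraries, against 276.5 and 258 CPM in sex-converted GV libraries. In native oocytes Tmem201 had 1047 and 977 CPM at MII, against 232.2 and 248.2 CPM at GV. It rose by 1.79 in the sex-converted line (SE 0.162, adjusted p = 4.18e-06) and by 2.08 in the native line (SE 0.164, adjusted p = 1.68e-06). Tor1aip1 (LAP1), the membrane activator of torsin A, rose by 2.17 and 2.23, and the torsin family gene Tor2a by 2.39 and 2.36 in the sex-converted and native lines, with adjusted p-values of 6.87e-06 and 5.72e-06 for Tor1aip1 and of 0.000114 and 0.000125 for Tor2a (2.99 in the native line without native GV replicate 2).

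The named genes of that list that fell were rarely read, apart from Ankle2. Ankle2 had 679 to 915 reads in MII libraries and 1829 to 2952 reads in GV libraries. Its log2 fold change was -0.71 in the sex-converted line (adjusted p = 0.00792) and -0.89 in the native line (adjusted p = 0.00223). Whether these calls depend on the settings was not checked. Nrm, which encodes the inner membrane protein nurim, had 2 and 0 reads in sex-converted MII libraries, against 26 and 40 in sex-converted GV libraries, a ratio of MII over GV of 0.0575 (95% interval 0.00682 to 0.216, counting error only). In native oocytes Nrm had 2 and 0 reads at MII, against 30 and 17 at GV, a ratio of 0.0716 (95% interval 0.00843 to 0.274). Lemd1, another LEM-domain gene, had 0 and 2 reads in sex-converted MII libraries, against 38 and 22 in sex-converted GV libraries, a ratio of 0.0633 (95% interval 0.00749 to 0.239). Lemd1 had 2 and 4 reads in native MII libraries, against 27 and 23 in native GV libraries, and Tor3a had 0 and 10 reads in sex-converted MII libraries against 51 and 56 in sex-converted GV libraries, and 8 and 4 in native MII against 44 and 45 in native GV libraries. Adjusted p-values were 0.00709 and 0.0114 for Nrm, 0.0059 and 0.0396 for Lemd1 and 0.0216 and 0.039 for Tor3a in the sex-converted and native lines. Calls were lost for Nrm without MII replicate 2 of either line (adjusted p = 0.0584 and 0.0608), for Tor3a when sex-converted MII replicate 1 was left out (adjusted p = 0.0757), and for Lemd1 and Tor3a in the native line without any 1 of the 4 native libraries (adjusted p = 0.0564 to 0.185). The native call of Lemd1 was also lost without sex-converted GV replicate 1 (adjusted p = 0.0524).

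Lamin tail processing is the series of steps that farnesylates and trims lamin precursors. Of its 5 genes 2 rose and 1 fell in the sex-converted line (median change 0.485), and 3 rose and 1 fell in the native line (median 0.625), where 29.3% and 29.6% of all genes were called higher and 36.2% and 35.7% lower. Icmt, the methyltransferase of the farnesylated end, had 605.8 and 471.3 CPM in sex-converted MII libraries, against 164.3 and 111.9 CPM in sex-converted GV libraries. Native oocytes had 479.5 and 543.9 CPM of Icmt at MII, against 93.78 and 183 CPM at GV, and its rise was 1.96 and 1.89 in the sex-converted and native lines (adjusted p = 0.000178 and 0.000237). Rce1, the protease that removes the last residues of the tail, fell by 1.54 and 1.56 (adjusted p = 0.000924 and 0.000828). Fnta, a farnesyltransferase subunit, rose by 1.23 and 0.88 (adjusted p = 0.000189 and 0.00195), but was at 0.297 and -0.033 with library totals alone. Zmpste24, which cleaves prelamin A, had a log2 fold change of 0.485 in the sex-converted line (adjusted p = 0.0826) and of 0.63 in the native line (adjusted p = 0.0327), with -0.45 and -0.29 for library totals alone, and the native call was lost without any 1 of 4 libraries, sex-converted MII replicates 1 and 2, native MII replicate 2 or native GV replicate 1 (adjusted p = 0.0554 to 0.209).

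The kinases, phosphatases and lipins that act on the envelope and lamina at division had 15 members, all tested. In the sex-converted line 4 rose and 7 fell (median change -1.31), and in the native line 2 rose and 7 fell (median -1.17). Over all tested genes 36.2% and 35.7% were called lower, 29.3% and 29.6% higher, and the medians were -0.345 and -0.307. Lpin2, a phosphatidate phosphatase of the lipin family, had 62.51 and 19.78 CPM in sex-converted MII libraries, against 462 and 425.5 CPM in sex-converted GV libraries. In native oocytes Lpin2 had 43.26 and 30.78 CPM at MII, against 375.2 and 424 CPM at GV. It fell by 3.43 in both lines (adjusted p = 3.57e-05 and 3.58e-05; -4.49 without sex-converted MII replicate 1 and -2.83 without replicate 2), and its relative Lpin1 fell by 3.05 and 2.86 in the sex-converted and native lines (adjusted p = 6.77e-05 and 0.000107). Cdca2 (Repo-Man), which brings protein phosphatase PP1 to chromosomes at mitotic exit, had 34 and 18 reads in sex-converted MII libraries, against 1172 and 1600 in sex-converted GV libraries, and 43 and 37 in native MII libraries, against 1445 and 972 in native GV libraries. Its fall was -4.78 and -4.15 (adjusted p = 1.1e-06 and 1.66e-06; -5.43 without sex-converted MII replicate 1). Ppp1cc, a catalytic subunit of PP1, rose by 1.15 and 1.25 (adjusted p = 0.00088 and 0.000519) and Vrk3, of the vaccinia-related kinase family, by 1.41 and 1.66 (adjusted p = 0.00242 and 0.000903). The calls of both were lost with library totals alone, where Ppp1cc was at 0.22 and 0.34 and Vrk3 at 0.47 and 0.75.

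The factors that seal membranes of the re-forming envelope, ESCRT-III subunits and the enzymes that remodel and sever, had 10 members, of which 9 were tested and Chmp4c was not. In the sex-converted line 3 rose and 4 fell (median change -0.057), and in the native line 3 rose and 3 fell (median 0.12), beside 29.3% and 29.6% higher and 36.2% and 35.7% lower calls over all genes. Spast, a microtubule-severing enzyme, had 731.1 and 829.1 CPM in sex-converted MII libraries, against 224.3 and 259.8 CPM in sex-converted GV libraries, and rose by 1.69 (adjusted p = 6.44e-06). It had 793 and 840.2 CPM in native MII libraries, against 263.7 and 251 CPM in native GV libraries, and rose by 1.67 (adjusted p = 6.9e-06). Ist1, which binds spastin, rose by 0.76 and 1.19 (adjusted p = 0.0246 and 0.00228), with -0.18 and 0.279 for library totals alone, and the first call did not survive leaving out sex-converted MII replicate 1 (adjusted p = 0.133) or GV replicate 2 (adjusted p = 0.16). Chmp4b, the main filament subunit, rose by 1.37 and 1.65 (adjusted p = 0.000567 and 0.00016), and its call in the sex-converted line was lost with library totals alone (0.44, adjusted p = 0.139).

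The sealing genes that fell included another filament subunit, the remodelling ATPase and a regulator. Vps4a, the ATPase that takes filaments apart, had 18.28 and 12.36 CPM in sex-converted MII libraries, against 125 and 143 CPM in sex-converted GV libraries, and 15.47 and 11.46 CPM in native MII libraries, against 152.8 and 124.7 CPM in native GV libraries. It fell by 3.13 and 3.36 in the sex-converted and native lines (adjusted p = 2.88e-06 and 1.93e-06), while its paralog Vps4b was at -0.057 and 0.12 (adjusted p = 0.848 and 0.687). Chmp2a had 33 and 23 reads in sex-converted MII libraries, against 805 and 1018 in sex-converted GV libraries, and 40 and 7 reads in native MII libraries, against 954 and 660 in native GV libraries. Its fall was -4.08 and -4.38 (adjusted p = 2.5e-05 and 1.76e-05; in the native line -5.94 without native MII replicate 1 and -3.73 without replicate 2). Cc2d1b, which regulates ESCRT-III assembly at the envelope, fell by 4.11 and 4.49 (adjusted p = 4.77e-06 and 3.08e-06; in the sex-converted line -4.76 without MII replicate 1). Vps4b and Ankle2 lie outside the rule by which other genes of the lists were named and were picked with their values in view.

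**Figure D5:**
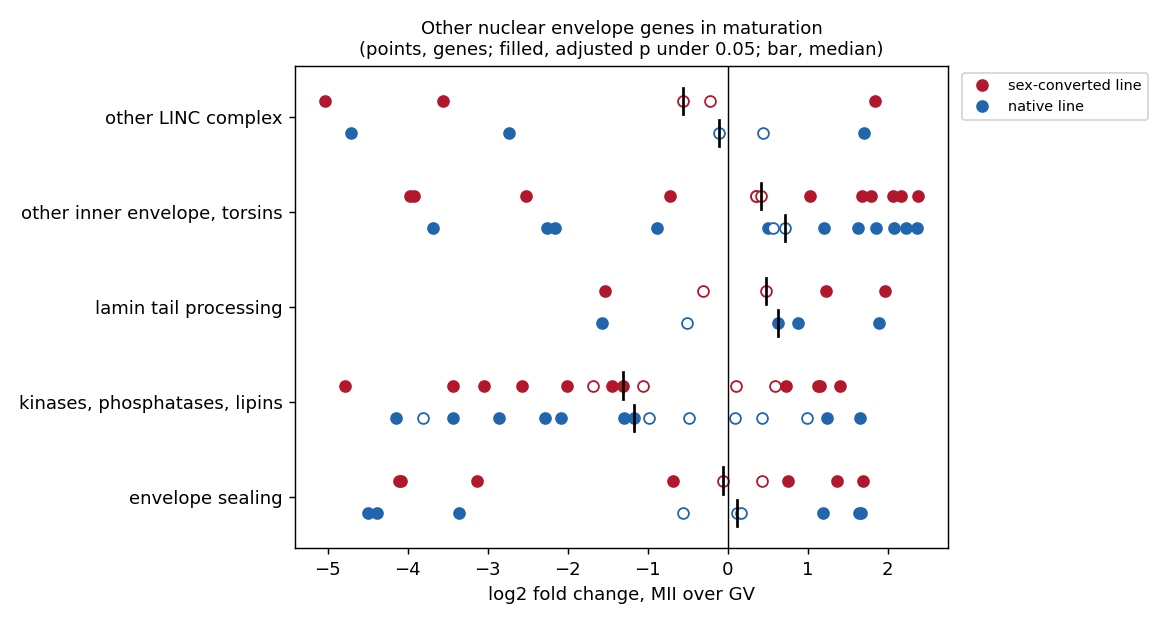
Log2 fold change of MII over GV for each tested gene of 5 lists of nuclear envelope genes, sex-converted line above native line, with points for genes, filled where the adjusted p is under 0.05, and a bar for the list median. Genes of each list lie on both sides of 0, and the list of kinases, phosphatases and lipins has medians of -1.31 and -1.17.

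Over the 8 libraries, the genes with the courses most like that of Lbr were Klhl15, Trp53inp1, Klhl28, Nhsl1 and Kdelr2, at Euclidean distances of 0.671 to 0.897 between log2 CPM values centred on each gene's mean, beside a median of 6.91 over 7335 genes with a mean of at least 10 CPM. Their log2 fold changes of MII over GV were 4.67 to 5.23 in the sex-converted and 4.83 to 5.42 in the native line. These likenesses rest on 8 libraries in which stage is the main contrast and are a description.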

How the data were processed

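The authors' deposited table holds raw counts of reads per gene, whole numbers with a different total per library. Per the submitters' processing notes, Trimmomatic 0.38, HISAT2 2.1.0, featureCounts 2.0.0, DESeq2 1.30.1 and the build mm10 were used; no source used here gives the counting strand, how multiply mapping reads were handled or which annotation was counted. Per the labels' protocols, libraries were directional, made with 13 PCR cycles and read as single reads of 75 bases; counting intervals cover counting error only, as no molecular identifiers are described.

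Identifiers without version were matched to GENCODE M21 (GRCm38), which named 55144 genes and left 241 with 0.00326% of reads; Ccdc155 was matched to Kash5 through RefSeq synonyms. The test was that of edgeR 4.0.16 under R 4.3.3 (quasi-likelihood, TMM factors of 0.714 to 0.733 at MII and 1.33 to 1.43 at GV, filterByExpr at a minimum count of 10, two-sided, Benjamini-Hochberg over 14929 genes), in 1 fit of all 8 libraries with 4 residual degrees of freedom. TMM takes the bulk of genes as balanced, so changes are relative to other mRNAs. Standard errors were derived from the F statistic as |log2 fold change| / sqrt(F). No 2 replicates agreed within sampling noise (chi-square of 10.2 to 41.3 per gene).

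The members and lists were chosen with earlier results of these data known. From each list of other envelope genes the text names up to 3 called genes that moved most in each direction in the native line, with Vps4b and Ankle2 beside them. Levels per kb use the union of annotated exons. Alternatives were other scalings, filters, DESeq2 1.42.0, a replicate block, fits of the compared groups alone and each library left out; transcript length in place of exon length was added after the data were seen. The genes nearest in course to Lmna are not reported here.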

Additional observations from a re-analysis of the deposited data

How the results depend on the processing

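The number of members called moved by less than 1.5 times under all 15 alternatives (14 for the difference of the lines' changes), at 5 to 7 in the sex-converted line and 5 to 7 in the native line when single libraries were left out, and 0 for the comparisons of the lines. Lbr, Lmna, Lmnb1, Tmpo and Sun1 kept direction and call in both lines under each alternative, with ranges over libraries left out of 4.58 to 5.28 and 5.14 to 5.36 for Lbr and of -3.755 to -3.125 and -4.15 to -2.76 for Lmna in the sex-converted and native lines. Values that turned with library totals alone were those of Lmnb2 (-0.82 in the sex-converted and -0.25 in the native line), Emd (-0.17, sex-converted), Zmpste24 (-0.45 and -0.29), Ist1 (-0.18, sex-converted) and Fnta (-0.033, native); the construction of that scaling moves all log2 fold changes down. Those that turned with a library left out were Lmnb2 in the sex-converted line (-0.31 without GV replicate 2, range up to 0.81) and, without sex-converted GV replicate 1, Lemd3 in the sex-converted line (1.33, range down to -1.68) and between the lines at GV (-0.61, range up to 2.40); the cause was not tested. Deviations of the same-numbered libraries from their group means correlated at -0.443 to 0.171 over pairs of groups. The -0.443 was that of the 2 GV groups. With 2 libraries per group, it means that sex-converted GV replicate 1 deviated more like native GV replicate 2 than like replicate 1. A replicate block by number does not follow this likeness. With that block 7 and 6 members were called in the sex-converted and native lines. In the sex-converted line 5 of them were higher and 2 lower, against 28.1% and 34.5% of all tested genes. In the native line 5 were higher and 1 lower, against 28.1% and 34.1%. The block ended the native calls of Lemd1 (-2.26, adjusted p = 0.0598) and Tor3a (-2.12, adjusted p = 0.0568) and no other call that was checked. DESeq2 did not call Lemd1 in the native line (-2.23, adjusted p = 0.0633), and Zmpste24 lost its native call without the filter on low counts (0.54, adjusted p = 0.105) and in a fit of the native libraries alone (0.63, adjusted p = 0.0633). With 2 libraries per group and 3 to 28 reads per library, the 95% intervals of Lemd3 span several log2 units, and with transcript length the mean share of Lmna among lamins was 2.4% and 3.07% in sex-converted and native MII oocytes and 54.9% and 61.9% in sex-converted and native GV oocytes.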
